A study of Mus musculus with 20 samples.

Results

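Guanylate-binding proteins (GBPs) and immunity-related GTPases (IRGs) are interferon-inducible GTPases of mouse cells, and 9 of them were followed here: Gbp2, Gbp3, Gbp5, Gbp7, Gbp11, Irgm1, Irgm2, Igtp and Iigp1. They were chosen by name from these families, with earlier results of these data known, as the rows of the count table whose Ensembl identifier maps to those symbols. They are 9 of 45706 genes in the table and 9 of the 14023 genes abundant enough to be tested. GBPs are large GTPases that assemble on vacuoles holding intracellular pathogens and on cytosolic bacteria, where they help to expose bacterial lipopolysaccharide to caspase-11. IRGs are smaller relatives that act on the same vacuoles and are best known for restricting Toxoplasma gondii in fibroblasts and other cells. Irgm1, Irgm2 and Igtp (also called Irgm3) sit on host membranes and hold effector IRGs such as Iigp1 (also called Irga6) inactive there. Their genes are classical targets of interferon signalling: type I interferon acts on interferon-stimulated response elements (ISREs), interferon gamma acts on gamma-activated sites (GAS), and IRF1 binds ISRE-like sequences.

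The cells were primary mouse embryonic fibroblasts (MEFs) of C57BL/6 background, and all of them, controls included, lacked c-Rel, an NF-kB subunit encoded by Rel. The control genotype is crel-/-, and the other, crel-/-RelA-TA-KI, carries in addition a knock-in allele of the NF-kB subunit RelA and is called knock-in here. What TA stands for is not given in the sources used here. After a night in 0.5% serum, cells were left at 0 h or given interleukin 1 beta (IL-1b, 10 ng/ml), bacterial lipopolysaccharide (LPS, 100 ng/ml) or tumour necrosis factor (TNF, 10 ng/ml) for 0.5, 1 or 3 h. Each genotype, agent and time has 1 library, 20 in all, so a value in a single library has a counting interval and no replicate error. Nothing in the labels says that libraries came from separate cultures, so p-values speak of the spread among the libraries alone, and that may be technical in part.

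The 20 libraries held 9248151 to 12574135 counts. Levels are CPM, counts scaled to a common library size, itself adjusted by TMM. The factor was lowest for the crel-/- (0.723) and knock-in (0.732) cells at 3 h of LPS, and elsewhere ran from 0.979 to 1.12. Rel had 188 to 446 counts in every library, and since the labels do not say which bases of Rel were deleted, these counts do not check the genotype. Rela, the gene of the knock-in, had a median of 134.7 CPM in crel-/- (72.8 to 354.5) and 98.2 CPM in knock-in cells (76.0 to 196.3). All 10 fibroblast markers had counts, with a summed level of 54230 to 82370 CPM in crel-/- and 53590 to 81010 CPM in knock-in libraries. All 12 macrophage markers had counts too, with a summed level of 2229 to 4536 CPM in crel-/- and 2197 to 4086 CPM in knock-in libraries. So did all 8 endothelial markers (summed, 29.9 to 106.3 CPM in crel-/- and 36.8 to 98.9 CPM in knock-in libraries). All 7 epithelial markers also had counts (5.71 to 13.95 and 8.25 to 17 CPM, in the same order). Defining genes of lymphoid cells were at or near 0: Cd3e, Cd3d, Cd8a, Nkg7, Ncr1 and Ifng had 0 counts in all 20 libraries, and the list of 11 such genes held 108 counts in all. In such bulk libraries, fewer cells of a type and less RNA per cell cannot be told apart.

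In mm10 coordinates of the count table, Gbp5 (ENSMUSG00000105504.2, chromosome 3, 142493978 to 142522344), Gbp7 (ENSMUSG00000040253.13, 142530342 to 142550149), Gbp3 (ENSMUSG00000028268.12, 142560026 to 142573209) and Gbp2 (ENSMUSG00000028270.10, 142620602 to 142638008) stand in a row on the plus strand of chromosome 3. Gbp11 (ENSMUSG00000092021.6) lies on the minus strand of chromosome 5, 105323042 to 105346472. Irgm1 (ENSMUSG00000046879.6, 48861968 to 48871683, minus strand), Igtp (ENSMUSG00000078853.6, 58199556 to 58207591, plus strand) and Irgm2 (ENSMUSG00000069874.6, 58199618 to 58222779, plus strand) lie on chromosome 11, and Iigp1 (ENSMUSG00000054072.9, 60376029 to 60392627, plus strand) on chromosome 18. Igtp and Irgm2 share 162 exon bases on the same strand, 8.01% of Igtp and 4.47% of Irgm2. Gbp11 shares 69.1% of its exon bases with an unnamed gene on the same strand that had 0 counts in every library. Of all words of 50 bases in their exons, 19.2% in Gbp11, 12.7% in Gbp7, 11.8% in Igtp and 7.77% in Irgm2 also occur in other genes, against 0.31% to 3.75% in the remaining 5 members. How reads matching several genes were counted is not given in the sources used here, so the Gbp11, Gbp7, Igtp and Irgm2 counts are the least certain.

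RefSeq promoter windows (build GRCm38.p6, 250 bases before to 50 bases after the start of transcription) are reported for 7 of the 9 members. Gbp11 and Iigp1 were left out of the members' motif counts. Those counts therefore speak of the 7 reported members alone, and whether Gbp11 and Iigp1 hold these motifs is not reported here. The windows are shown because the members moved together and because the windows bear on interferon and NF-kB motifs. The ISRE searched, GAAANNGAAA on either strand, was in the windows of 7 of 7 members, against 3.44% of 32851 promoter windows. The GAS searched, TTCNNNGAA, was in 4 of 7 (Gbp5, Gbp7, Igtp and Irgm2), against 8.3% of windows. The kB motif of NF-kB, searched by its consensus on either strand, was in 1 of 7, Gbp5, against 4.51% of windows. A match is a description of these letters and not a bound site, and no match says only that the letters are not in this window.

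The windows of 4 members follow, 5′ to 3′ on the strand of the gene, with motif matches in capitals: Gbp5 (chr3:142496684-142496983, plus strand), which holds all 3 motifs, Gbp2 (chr3:142620413-142620712, plus strand), Irgm1 (chr11:48871371-48871670, minus strand) and Igtp (chr11:58199306-58199605, plus strand).
Gbp5: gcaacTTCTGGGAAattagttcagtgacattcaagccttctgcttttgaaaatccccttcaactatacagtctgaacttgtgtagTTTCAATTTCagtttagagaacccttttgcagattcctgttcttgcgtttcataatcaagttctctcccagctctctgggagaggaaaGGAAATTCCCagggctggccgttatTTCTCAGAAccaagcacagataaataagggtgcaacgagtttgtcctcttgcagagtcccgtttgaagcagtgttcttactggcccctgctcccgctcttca
Gbp2: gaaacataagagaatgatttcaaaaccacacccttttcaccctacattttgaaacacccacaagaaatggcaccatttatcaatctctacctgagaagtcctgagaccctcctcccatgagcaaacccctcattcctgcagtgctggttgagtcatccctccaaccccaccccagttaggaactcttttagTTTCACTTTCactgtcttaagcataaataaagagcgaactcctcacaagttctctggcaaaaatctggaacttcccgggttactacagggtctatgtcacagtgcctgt
Irgm1: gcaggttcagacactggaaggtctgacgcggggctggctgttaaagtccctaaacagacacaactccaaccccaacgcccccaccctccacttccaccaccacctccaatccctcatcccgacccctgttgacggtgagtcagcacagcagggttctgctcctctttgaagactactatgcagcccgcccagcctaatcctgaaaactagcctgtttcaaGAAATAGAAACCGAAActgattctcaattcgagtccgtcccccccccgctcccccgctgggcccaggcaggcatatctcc
Igtp: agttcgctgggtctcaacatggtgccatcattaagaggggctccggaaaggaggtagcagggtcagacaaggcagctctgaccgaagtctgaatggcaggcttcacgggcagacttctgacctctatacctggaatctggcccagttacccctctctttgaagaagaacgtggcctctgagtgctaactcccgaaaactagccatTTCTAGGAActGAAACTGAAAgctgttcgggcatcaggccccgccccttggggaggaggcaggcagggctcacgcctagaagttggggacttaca
In Gbp5 the capitals mark a GAS 245 bases before the start, an ISRE at 165, the kB match at 77 and another GAS at 52. In Gbp2 they mark an ISRE at 59. In Irgm1 they mark ISREs at 30 and 24 that overlap. In Igtp they mark a GAS at 45 and an ISRE at 34. The ISRE of Gbp7 lies 53 bases before the start, that of Irgm2 at 64, and Gbp3 has overlapping ISREs at 45 and 39 in the window of its first start site and no match in that of another.

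**Figure D1:**
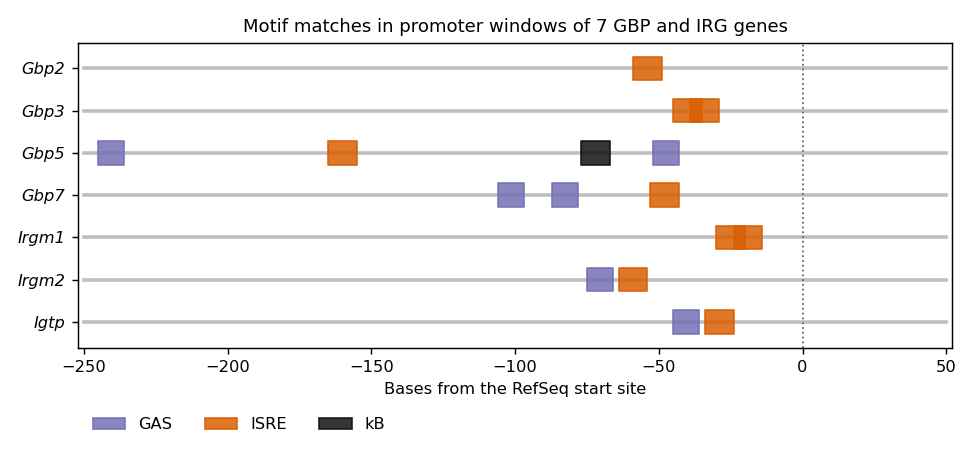
Position of motif matches in the promoter windows of 7 members, as bases from the start of transcription (horizontal axis), with 1 row per gene, at its first start site. Colours mark the ISRE, the GAS and the kB motif. An ISRE lies 24 to 165 bases before the start in every member shown, and the kB match appears in Gbp5 alone, at 77 bases.

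At 0 h the GBPs and IRGs were at low to moderate levels that were close in the 2 genotypes. Per kilobase of exon, the order at 0 h in crel-/- cells was Irgm2 (12.4 CPM per kb), Irgm1 (9.96), Gbp2 (9.88), Igtp (9.66), Iigp1 (6.93), Gbp3 (4.60), Gbp7 (3.62), Gbp5 (0.146) and Gbp11 (0 counts). After 3 h of LPS the order in crel-/- cells was Gbp2 (1969 CPM per kb), Igtp (883), Iigp1 (812), Irgm2 (515), Irgm1 (491), Gbp5 (282), Gbp3 (193), Gbp7 (169.5) and Gbp11 (15.1). With 1 library each, neighbours in these orders have no replicate spread to be told apart by. Knock-in cells differed little from crel-/- at 0 h: of the 8 members with counts, the ratio of crel-/- to knock-in ran from 0.600 (Gbp5, 12 and 19 counts) to 1.11 (Gbp3), and only the counting intervals of Irgm1 (0.843, 0.762 to 0.934) and Irgm2 (0.844, 0.752 to 0.948) excluded 1, with knock-in higher.

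After 3 h of LPS all 9 members were higher than at 0 h in both genotypes, by 33.0-fold or more in the 8 members with counts at 0 h. Gbp2 went from 24.9 CPM at 0 h to 4953 CPM in crel-/- cells and from 26.5 to 4500 CPM in knock-in cells. Gbp5, which promotes assembly of the NLRP3 inflammasome, went from 0.968 to 1873 CPM in crel-/- and from 1.61 to 844.5 CPM in knock-in cells. The 3 h LPS libraries thus stood above every other library for both genes, in both genotypes.

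Among the IRGs, Irgm1 went from 57.9 to 2854 CPM in crel-/- and from 68.6 to 3305 CPM in knock-in cells. Iigp1 went from 21.6 to 2535 CPM in crel-/- and from 25.1 to 2603 CPM in knock-in cells. Igtp went from 19.5 to 1785 CPM and from 20.6 to 1668 CPM, in the same order. For these 3 genes the LPS 3 h libraries of the genotypes lay within a ratio of 0.863 to 1.07 of each other.

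Irgm2 went from 44.9 to 1865 CPM in crel-/- and from 53.2 to 1891 CPM in knock-in cells. Gbp3 went from 15.0 to 630 CPM in crel-/- and from 13.6 to 448.4 CPM in knock-in cells. Gbp7 went from 20.3 to 951.7 CPM and from 21.8 to 889.1 CPM. Gbp11, with 0 counts in both 0 h libraries, reached 40.8 CPM (281 counts) in crel-/- and 38.7 CPM (309 counts) in knock-in cells, at least 319-fold above a floor of 3 counts over the 0 h libraries.

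By edgeR's quasi-likelihood test with both genotypes in 1 model, 9 of 9 members were higher at 3 h of LPS than at 0 h, where 29.2% of all tested genes were called higher and 28.3% lower. The log2 changes were 10.97 for Gbp5 (SE 1.56, adjusted p = 0.000199), 7.53 for Gbp2 (SE 1.21, adjusted p = 0.000437), 6.78 for Iigp1 (SE 0.74, adjusted p = 3.02e-05) and 6.43 for Igtp (SE 0.60, adjusted p = 1.03e-05). Irgm1 (5.61), Gbp7 (5.46), Irgm2 (5.25) and Gbp3 (5.24) followed, with adjusted p from 1.88e-06 (Irgm1) to 0.000194 (Gbp7), and Gbp11 had an adjusted p of 7.58e-08. The median of the 9 members was 6.43 (the same with Gbp11 at its lower bound, 8.32), against -0.01 over all genes tested. In this model a response that differs between genotypes counts as spread. Without the scaling factor the median over all genes shifted to -0.62 and the calls over all genes split into 1706 higher and 9110 lower in place of 4099 and 3962, and all 9 members still passed. At 0.5 and 1 h of LPS no member passed the test, in comparisons that called 3.56% (0.5 h) and 7.58% (1 h) of all genes higher and 2.46% and 6.08% lower. At unadjusted p the count was 1 at 0.5 h (Gbp11) and 0 at 1 h, and DESeq2 and limma-voom also called none. Fitted on the 4 libraries of each comparison alone, 6 members (Gbp2, Gbp3, Gbp7, Irgm1, Igtp and Iigp1) passed at 0.5 h, where that fit called 5.71% of all genes higher, and 4 (Gbp2, Gbp3, Irgm1 and Iigp1) at 1 h, where it called 9.93%. Over the 8 members with counts at 0 h, crel-/- cells were 1.44-fold (Irgm2) to 2.28-fold (Iigp1) above 0 h at 0.5 h and 1.21-fold (Igtp) to 5.24-fold (Gbp5) at 1 h, against 41.6-fold (Irgm2) to 1934-fold (Gbp5) at 3 h.

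Beside this response, summed macrophage markers went from 4114 to 3348 CPM in crel-/- and from 3437 to 2227 CPM in knock-in cells between 0 h and 3 h of LPS. Of the 12 markers, 7 were lower and 2 (Ptprc and Fcgr1) higher by the same test, against 28.3% and 29.2% of all genes. Cx3cr1 had a log2 change of -3.72 (SE 0.25, adjusted p = 3.12e-07) and Lyz2 of -0.71 (SE 0.09, adjusted p = 2.33e-05). Which cells of the culture carried the GBP and IRG transcripts was not tested.

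**Figure D2:**
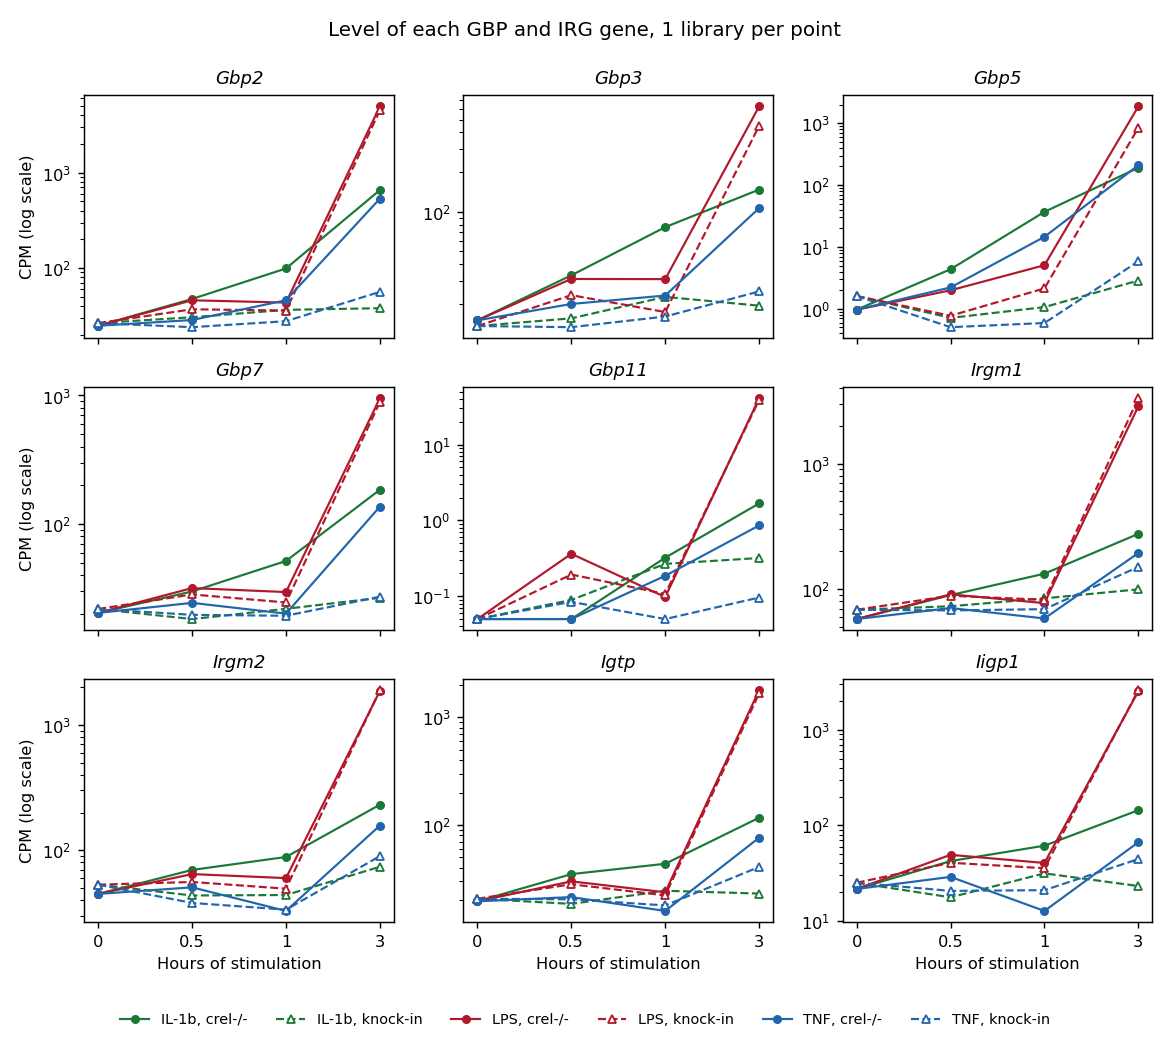
Level of each member (CPM, log axis, 0 CPM drawn at 0.05) at 0, 0.5, 1 and 3 h of IL-1b, LPS and TNF, times evenly spaced and not to scale; solid lines and filled circles are crel-/- and dashed lines and open triangles knock-in libraries, 1 library per point. LPS at 3 h is the highest point of every panel in both genotypes, while at 3 h of IL-1b and TNF the crel-/- points lie above the knock-in points for every member.

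IL-1b and TNF gave a smaller response that was seen mainly in crel-/- cells. At 3 h of IL-1b, crel-/- cells held 190.9 CPM of Gbp5, 197-fold above 0 h (counting interval 113 to 382), and knock-in cells held 2.87 CPM, 1.78-fold above 0 h (0.995 to 3.29). Under TNF at 3 h the Gbp5 values were 209.6 CPM in crel-/- and 5.86 CPM in knock-in cells. In crel-/- cells the IL-1b and TNF libraries thus lay close to each other and far below the LPS library.

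Gbp2, a GBP that is recruited to Toxoplasma vacuoles, held 657.4 CPM in crel-/- and 38.0 CPM in knock-in cells at 3 h of IL-1b. Under TNF it held 534.4 CPM in crel-/- and 56.4 CPM in knock-in cells. Gbp3 held 147.3 and 19.4 CPM under IL-1b and 106.6 and 24.9 CPM under TNF, crel-/- given before knock-in. For Gbp2 and Gbp3 the knock-in values under cytokines stayed within 2.13-fold of their 0 h level.

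Gbp7 held 184.8 CPM in crel-/- and 26.7 CPM in knock-in cells under IL-1b at 3 h, and 136.6 and 27.2 CPM under TNF. Gbp11 held 17 counts in crel-/- and 4 in knock-in cells under IL-1b, and 10 and 1 counts under TNF. Over both genotypes this was at least 7.46-fold (IL-1b) and at least 4.01-fold (TNF) above the floor at 0 h. The Gbp11 values under cytokines thus rest on few counts.

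The IRGs answered the cytokines with smaller folds. Irgm1, the regulator linked to autophagy and mitochondria, held 275.7 CPM in crel-/- and 99.8 CPM in knock-in cells at 3 h of IL-1b, and 194.1 and 150.4 CPM under TNF. Irgm2 held 230.9 and 73.8 CPM under IL-1b and 157.5 and 89.8 CPM under TNF. Igtp held 116.7 and 23.1 CPM under IL-1b and 76.1 and 40.7 CPM under TNF. Under TNF the knock-in cells were also above 0 h for these 3 genes, by 2.19-fold (Irgm1), 1.69-fold (Irgm2) and 1.97-fold (Igtp). This was not particular to them: over the 8 members with counts at 0 h, knock-in folds at 3 h of TNF ran from 1.25 (Gbp7) to 3.63 (Gbp5). At 3 h of IL-1b the knock-in folds ran from 0.924 (Iigp1) to 1.78 (Gbp5). Iigp1, the effector, held 144.3 CPM in crel-/- and 23.2 CPM in knock-in cells under IL-1b, and 66.7 and 44.5 CPM under TNF.

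Counted as a fold of 2 or more over the 0 h library of the same genotype (log2 CPM with a prior count of 2), 9 of 9 members passed in crel-/- cells at 3 h of IL-1b and 9 of 9 at 3 h of TNF, where 7.97% and 6.17% of all genes did. In knock-in cells 1 of 9 passed under IL-1b (Gbp11, on 4 counts) and 3 of 9 under TNF (Gbp2, Gbp5 and Irgm1), against 3.06% and 4.48% of all genes. Under LPS all 9 passed in both genotypes, against 14.1% (crel-/-) and 12.2% (knock-in) of all genes. At 1 h of IL-1b, 8 of 9 passed in crel-/- cells (all but Irgm2, 1.97-fold; 5.63% of genes) and 1 of 9 in knock-in cells (Gbp11, 3 counts; 3.22%). These counts compare 1 library with 1 library and carry no test.

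Gbp5 and Gbp2 show the early course. Under IL-1b, Gbp5 held 4.37, 37.0 and 190.9 CPM at 0.5, 1 and 3 h in crel-/- cells and 0.715, 1.07 and 2.87 CPM in knock-in cells. Gbp2 held 47.4, 99.1 and 657.4 CPM in crel-/- and 30.6, 36.5 and 38.0 CPM in knock-in cells over the same times. Under TNF, Gbp5 held 2.22, 14.6 and 209.6 CPM in crel-/- and 0.506, 0.591 and 5.86 CPM in knock-in cells. At 0.5 h the ratio of crel-/- to knock-in for Gbp5 was 6.11 under IL-1b (44 and 8 counts, counting interval 2.85 to 15.0). It was 4.39 under TNF (30 and 6 counts, 1.80 to 12.9) and 2.58 under LPS (22 and 8 counts, 1.11 to 6.70). Knock-in cells then held 0.44 (IL-1b) and 0.31 (TNF) of their 0 h level, itself 19 counts. No member passed the genotype test at 0.5 h.

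In the model over both genotypes, 7 of 9 members were higher at 3 h of IL-1b than at 0 h, against 16.9% of all genes higher and 13.8% lower. Gbp5 had a log2 change of 5.59 (SE 1.58, adjusted p = 0.0253), Gbp2 of 3.25 (SE 1.04, adjusted p = 0.04) and Irgm1 of 1.51 (SE 0.37, adjusted p = 0.0125) by edgeR. Gbp7 (2.04, adjusted p = 0.0555) and Iigp1 (1.64, adjusted p = 0.0765) did not pass. Under TNF at 3 h, 6 of 9 were higher, against 18.7% of all genes higher and 16.0% lower: Gbp5 (5.84, SE 1.58, adjusted p = 0.0182), Gbp2 (3.08), Gbp3 (1.96), Gbp11, Irgm1 (1.43) and Irgm2 (1.26). Gbp7 (1.72, adjusted p = 0.0874), Igtp (1.48, adjusted p = 0.0541) and Iigp1 (1.19, adjusted p = 0.1687) did not pass. Medians over the members were 2.04 for IL-1b and 1.72 for TNF, against 0.01 and 0.00 over all genes. Without the scaling factor the all-gene medians were -0.15 and -0.14, the calls split into 1318 higher and 3790 lower for IL-1b (2366 and 1941 with it) and 1573 and 3710 for TNF (2618 and 2243 with it), and 6 members passed for each. Without the crel-/- 0 h library or without the crel-/- library of the agent at 3 h, no member passed for either agent, and without the knock-in 0 h library 3 passed for TNF. Fitted on the 4 libraries of the comparison alone, 0 passed for IL-1b (1.14% of all genes higher in that fit) and 2 (Irgm1 and Iigp1) for TNF (7.32%).

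At 0.5 and 1 h of IL-1b and TNF no member was called by edgeR, DESeq2 or limma-voom. The edgeR comparisons called 5.75% (IL-1b 0.5 h), 8.38% (IL-1b 1 h), 0.314% (TNF 0.5 h) and 2.25% (TNF 1 h) of all genes higher, and 5.36%, 7.12%, 0.0784% and 1.78% lower. At unadjusted p the count of members was 2 at 1 h of IL-1b (Gbp3 and Gbp11) and 0 in the other 3 comparisons. On the 4 libraries alone, Irgm2 was called lower at 1 h of TNF, with 3.34% of all genes (log2 change -0.58 in the model of all libraries). Iigp1 held 12.7 CPM at 1 h of TNF in crel-/- cells, 0.589 of its 0 h level (counting interval 0.476 to 0.726), the lowest ratio of the 8 members there.

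The agents differed at 3 h. All 9 members were higher under LPS than under TNF (24.3% of all genes higher, 24.0% lower) and all 9 were higher than under IL-1b (23.8% higher, 23.4% lower). Against TNF the log2 differences ran from 3.29 (Gbp3, adjusted p = 0.0012) to 6.35 (Gbp11, SE 0.46, adjusted p = 2.69e-07), with a median of 4.45. Against IL-1b they ran from 3.05 (Gbp3, adjusted p = 0.0019) to 5.42 (Gbp11, adjusted p = 4.82e-07), with a median of 4.27. Medians over all genes were -0.02 and 0.00. Without the scaling factor they were -0.48 and -0.44, with 1585 genes higher and 7862 lower against TNF (3406 and 3360 with it) and 1491 and 7738 against IL-1b (3337 and 3285 with it), and all 9 members passed in both. On the 4 libraries of each comparison alone, 5 passed against TNF (Gbp11, Irgm1, Irgm2, Igtp and Iigp1; 19.6% of all genes higher) and 1 against IL-1b (Gbp11; 14.8%). Between IL-1b and TNF no member passed by edgeR, where 7.89% of genes were called higher and 7.93% lower. At unadjusted p the count was also 0, and DESeq2 and limma-voom called none. The differences ran from -0.25 for Gbp5 (SE 0.93) to 0.93 for Gbp11 (SE 0.74), so differences of this size were not detectable with this spread.

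After 3 h of IL-1b, every member was lower in knock-in than in crel-/- cells. The ratio of crel-/- to knock-in was 66.5 for Gbp5 (1939 and 36 counts, counting interval 47.8 to 95.2), 17.3 for Gbp2 (15.8 to 19.0), 7.60 for Gbp3 (6.63 to 8.74) and 6.93 for Gbp7 (6.17 to 7.81). The IRGs had ratios of 6.22 (Iigp1, 5.48 to 7.07), 5.06 (Igtp, 4.45 to 5.77), 3.13 (Irgm2, 2.90 to 3.38) and 2.76 (Irgm1, 2.59 to 2.96), and Gbp11 of 5.24 (1.71 to 21.4). Intervals cover counting error in the 2 libraries and say nothing of the spread between cultures.

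Under TNF at 3 h the order was similar among GBPs and the IRG ratios were smaller. Gbp5 had a ratio of 35.8 (27.8 to 46.9), Gbp2 of 9.48 (8.71 to 10.3), Gbp7 of 5.03 (4.43 to 5.72) and Gbp3 of 4.28 (3.74 to 4.92). Igtp had 1.87 (1.66 to 2.10), Irgm2 1.75 (1.62 to 1.90), Iigp1 1.499 (1.34 to 1.69) and Irgm1 1.29 (1.21 to 1.38). The 10 and 1 counts of Gbp11 gave 8.92 (1.27 to 387.3).

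Under LPS at 3 h the genotypes were close for most members. Only Gbp5 differed by 2-fold or more, with a ratio of 2.22 (2.15 to 2.28), and Gbp3 followed at 1.405 (1.34 to 1.47). The remaining 7 lay between 0.863 (Irgm1, 0.848 to 0.880, higher in knock-in) and 1.10 (Gbp2, 1.08 to 1.12). The median ratio over the 9 members was 1.07 under LPS, 4.28 under TNF and 6.22 under IL-1b. Members lower in knock-in by 2-fold or more (log2 CPM with a prior count of 2) numbered 9 of 9 under IL-1b, where 4.93% of all genes were, 5 of 9 under TNF (the 5 GBPs; 4.17% of genes) and 1 of 9 under LPS (Gbp5; 4.56% of genes).

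**Figure D3:**
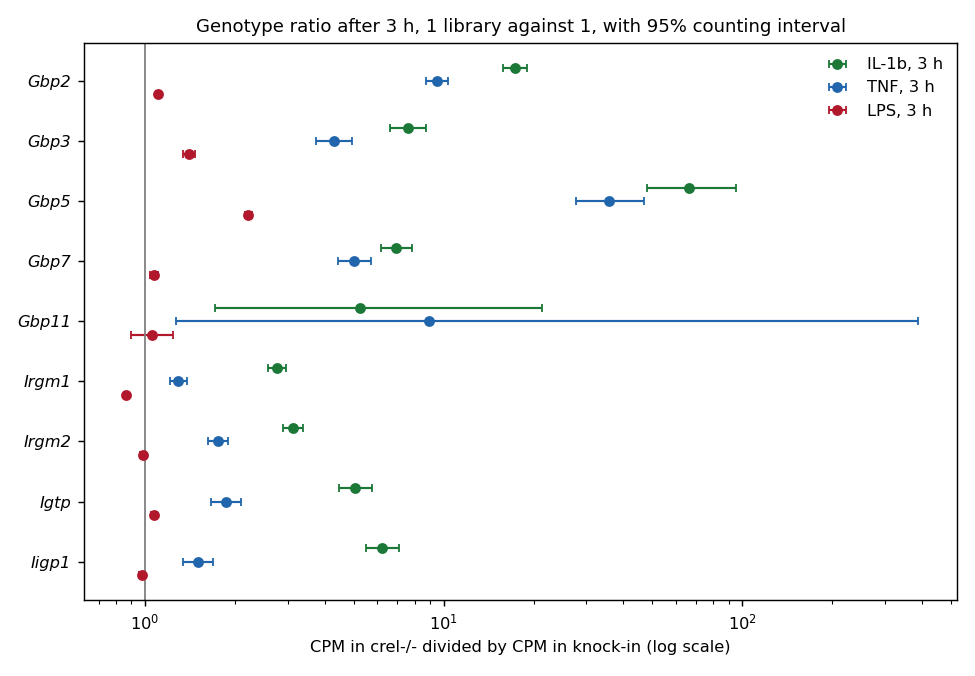
Ratio of the crel-/- to the knock-in level of each member at 3 h of IL-1b, LPS and TNF (log axis), 1 library on each side; bars are 95% counting intervals and the line marks a ratio of 1. Under LPS the points lie between 0.863 and 2.22, and under IL-1b between 2.76 and 66.5.

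Over all 10 matched pairs of libraries, 2 of 9 members were lower in knock-in cells by edgeR, where 7.81% of all genes were called lower and 7.99% higher. Gbp5 had a log2 difference of -3.39 (SE 0.70, adjusted p = 0.0096) and Gbp3 of -1.12 (SE 0.28, adjusted p = 0.0245). All 9 fitted differences were below 0, with a median of -0.54 against 0.00 over all genes, and 5 had an unadjusted p below the threshold. Gbp3 was no longer called without the IL-1b 1 h pair or without the TNF 3 h pair, while limma-voom called 4 (Gbp2, Gbp3, Gbp5 and Irgm2) and 8.69% of all genes lower.

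With the genotype difference fitted for each time, 0 of 9 passed at 0.5 h (1.32% of all genes called lower, 1.26% higher), 0 of 9 at 1 h (2.02% lower, 1.37% higher) and 0 of 9 at 3 h (8.35% lower, 8.20% higher) by edgeR. At 3 h, Gbp5 had -3.42 (SE 0.93, adjusted p = 0.0553), Gbp3 -1.71 (SE 0.47, adjusted p = 0.056), Gbp2 -2.53 (SE 0.81, adjusted p = 0.089) and Gbp7 -1.63 (SE 0.54, adjusted p = 0.0988). At unadjusted p the counts were 0, 0 and 5. DESeq2 called 0, 1 (Gbp5, with 2.13% of all genes lower) and 5 (Gbp2, Gbp3, Gbp5, Gbp7 and Irgm2, with 7.20%), and limma-voom 0, 0 and 3 (Gbp2, Gbp3 and Gbp5, with 9.04%). Without the LPS 3 h pair, 6 members passed at 3 h, where 6.96% of all genes were called lower: Gbp2, Gbp3, Gbp5, Gbp7, Gbp11 and Irgm2. The difference at 3 h against that at 0.5 h was called for 0 of 9 (1.76% of genes lower, 1.68% higher; unadjusted count 0; DESeq2 and limma-voom 0), and for Gbp2 and Gbp7 without the LPS 3 h pair (1.85% of genes lower).

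Fitted for each agent over its 3 times, the genotype difference passed for 2 of 9 members under IL-1b (2.62% of genes lower, 1.85% higher), 1 of 9 under TNF (2.34% lower, 2.62% higher) and 0 of 9 under LPS (1.18% lower, 0.948% higher). Gbp5 had -5.48 under IL-1b (SE 0.46, adjusted p = 0.0013) and -4.86 under TNF (SE 0.47, adjusted p = 0.0025). Irgm2 had -1.12 under IL-1b (SE 0.20, adjusted p = 0.0237), a call lost without the IL-1b 1 h or the IL-1b 3 h pair. The Gbp5 call under TNF was lost without the TNF 3 h pair. Under IL-1b, DESeq2 called 6 members and 3.03% of all genes lower, and limma-voom 8 members and 3.32%. Under TNF, DESeq2 called 2 members (Gbp3 and Gbp5) and 1.94% of all genes lower. Under LPS, where Gbp5 had -1.18 (SE 0.37, adjusted p = 0.2003), 1 member had an unadjusted p below the threshold, DESeq2 called 0 and limma-voom 1 (Gbp5, with 1.40% of all genes lower). The difference between the agents themselves was not called for any member by edgeR, in comparisons that called 0% of genes higher and 0.0214% lower (LPS against TNF) and 0% in either direction (LPS against IL-1b). Gbp5 came nearest, with 3.68 for LPS minus TNF (SE 0.61, adjusted p = 0.2248) and 4.30 for LPS minus IL-1b (SE 0.61, adjusted p = 0.2825). Unadjusted counts were 1 and 6, DESeq2 called 0 and 0, and limma-voom 1 and 1 (Gbp5 in each, with 0.00713% and 0.0214% of all genes higher).

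Because the LPS 3 h pair differed from the other 3 h pairs, a model chosen after seeing these values gave LPS at 3 h a genotype difference of its own and shared another between IL-1b and TNF at 3 h. In it 6 of 9 members were lower in knock-in cells at 3 h of IL-1b and TNF, where 6.80% of all genes were called lower and 6.08% higher. They were Gbp5 (-5.56, SE 0.47, adjusted p = 0.0013), Gbp2 (-3.67, SE 0.33, adjusted p = 0.0015), Gbp7 (-2.57, SE 0.27, adjusted p = 0.0022), Gbp3 (-2.51, SE 0.33, adjusted p = 0.0056), Gbp11 (-2.53, SE 0.62, adjusted p = 0.0196) and Irgm2 (-1.23, SE 0.29, adjusted p = 0.0463). Igtp (-1.61, adjusted p = 0.067), Irgm1 (-0.92, adjusted p = 0.1366) and Iigp1 (-1.60, adjusted p = 0.1773) did not pass. The median was -2.51 against 0.00 over all genes. Without the IL-1b 3 h pair, Gbp2, Gbp5 and Gbp7 still passed (5.51% of all genes lower).

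The contrast of the LPS difference with that of IL-1b and TNF in this model called 0 of 9 members (0.257% of genes higher, 0.300% lower) by edgeR. It was 3.54 for Gbp2 (SE 0.52, adjusted p = 0.0752), 4.41 for Gbp5 (SE 0.67, adjusted p = 0.0826) and 2.47 for Gbp7 (SE 0.43, adjusted p = 0.1), and 6 members had an unadjusted p below the threshold. DESeq2 called 3 (Gbp2, Gbp3 and Gbp7; 0.270% of genes higher), limma-voom 4 (Gbp2, Gbp3, Gbp5 and Gbp7; 0.328%), and edgeR 1 (Gbp2; 1.90%) without the TNF 3 h pair. With all libraries, a smaller genotype difference under LPS was therefore not called by edgeR at the threshold. The other tools called it for some GBPs and for no IRG. The contrast was chosen on these same values and LPS at 3 h has 1 pair, so these calls do not show such a difference.

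Some macrophage markers were lower in knock-in cells too, 3 of 12 over the 10 pairs (Lyz2, Aif1 and C1qa), against 7.81% of all genes. At 3 h of IL-1b and TNF 1 of 12 (Lyz2) was lower, near the 6.80% of all genes called lower there. Under IL-1b at 3 h the 12 summed markers were 2997 CPM in crel-/- and 2389 CPM in knock-in cells, and at 3 h of TNF 4536 and 4086 CPM. Lyz2, the most abundant of them, had a log2 difference of -0.49 over the 10 pairs (SE 0.04, adjusted p = 5.39e-06) and C1qa of -0.14 (SE 0.03, adjusted p = 0.0081). Their part in the result was not tested.

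Relatives outside the 9 members were counted from a list of 19 other GBP, IRG and related interferon-inducible GTPase genes, of which 17 were tested. By 3 h of LPS, 16 rose and 1 fell, against 29.2% and 28.3% of all genes, with a median log2 change of 6.32. The 4 largest were Tgtp2 (9.46), Gbp4 (9.31), Mx1 (8.75), the antiviral dynamin-like GTPase, and Tgtp1 (8.16). Tgtp1 and Tgtp2 are near-identical copies, so the split of their reads is uncertain. The gene that fell was Irgq (log2 change -1.12, SE 0.31, adjusted p = 0.0091), named after its values were seen. After 3 h of IL-1b 7 of 17 rose, against 16.9% of all genes. At 3 h of TNF 4 rose and 3 fell, near the shares of all genes (18.7% higher, 16.0% lower). The genotype difference at 3 h was called for 2 of 17 (8.35% of all genes were lower), Gbp6 (-2.52, SE 0.63, adjusted p = 0.0407) and Gbp4 (-1.21, SE 0.33, adjusted p = 0.0399). Under IL-1b and TNF at 3 h, 9 of 17 were lower in knock-in cells and 0 higher, against 6.80% and 6.08% of all genes. The median was -1.45, and those lower included Gbp6 (-4.10, SE 0.52, adjusted p = 0.0033) and Tgtp2 (-3.73, SE 0.50, adjusted p = 0.000618).

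Genes of interferon signalling, a list of 25 with 24 tested, included 20 that rose and 1 that fell (Ifngr1) at 3 h of LPS. The median was 2.95, and 29.2% of all genes rose and 28.3% fell. Socs1, a feedback inhibitor of JAK kinases, rose by 6.12 (SE 0.32, adjusted p = 4.42e-08). Batf2 and Ciita, with 2 and 1 counts at 0 h over both genotypes, were 279-fold (counting interval 76.7 to 2316) and 159-fold (27.9 to 6349) higher. Irf7 rose by 4.67, Irf1 by 4.70, Stat2 by 3.04 and Irf9 by 1.81, all with an adjusted p of 0.0054 (Irf1) or less. At 3 h 6 of 24 rose and 1 fell under IL-1b (16.9% and 13.8% of all genes), and 9 rose and 1 fell under TNF (18.7% and 16.0%).

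Ifnb1, which encodes interferon beta, was seen almost only under LPS. It had 0 counts at 0 h in both genotypes, 10.3 CPM in crel-/- and 15.9 CPM in knock-in cells at 1 h of LPS, and 40.2 CPM (277 counts) and 117.9 CPM (942 counts) at 3 h. Under IL-1b and TNF no library held more than 2 counts. Ifng, which encodes interferon gamma, had 0 counts in all 20 libraries. By edgeR, Ifnb1 was higher in knock-in cells over the 10 pairs (1.05, SE 0.24, adjusted p = 0.0158) and at 3 h (1.51, SE 0.23, adjusted p = 0.0021). Only LPS at 1 h (106 and 148 counts, crel-/- before knock-in) and 3 h had more than a few counts. The first difference thus rests on those pairs and the second on the LPS 3 h pair, so neither p-value measures replicate spread. Under LPS at 3 h Ifnb1 lay on the opposite side from the 6 members that were lower in knock-in cells, Gbp5 among them. It lay on the same side as Irgm1 (ratio of crel-/- to knock-in 0.863), Iigp1 (0.974) and Irgm2 (0.986, counting interval 0.963 to 1.01).

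Irf1, an interferon- and NF-kB-inducible activator of ISRE genes, moved early in crel-/- cells. It held 27.4 CPM at 0 h, 809.1, 691.3 and 102 CPM at 0.5, 1 and 3 h of IL-1b, 125.8, 544.2 and 1026 CPM of LPS, and 596.5, 549.8 and 264 CPM of TNF. In knock-in cells it held 29.3 CPM at 0 h, 51.1, 63.9 and 62.5 CPM of IL-1b, 29.5, 41.9 and 604.2 CPM of LPS, and 46.9, 51.9 and 53.4 CPM of TNF. In knock-in cells LPS at 3 h was thus the highest, and the other stimulated libraries held 29.5 to 63.9 CPM. Those were 1.01-fold (LPS at 0.5 h) to 2.18-fold (IL-1b at 1 h, counting interval 1.92 to 2.49) above 0 h. Over the 10 pairs the log2 difference was -2.46 (SE 0.49, adjusted p = 0.008).

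At 3 h, 8 of the 24 interferon signalling genes were lower in knock-in cells and 1 was higher, against 8.35% and 8.20% of all genes. The 1 that was higher was Ifnb1, by its LPS pair alone. The largest of those that were lower were Jak2 (2.01-fold lower, SE 0.10 on the log2 scale, adjusted p = 8.67e-05), Tyk2 (-0.87, SE 0.14, adjusted p = 0.002) and Ifnar2 (-0.82, SE 0.10, adjusted p = 0.000187), which encode 2 JAK kinases and a chain of the type I interferon receptor. Under IL-1b and TNF at 3 h, 11 of 24 were lower and 0 higher, against 6.80% and 6.08% of all genes.

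**Figure D4:**
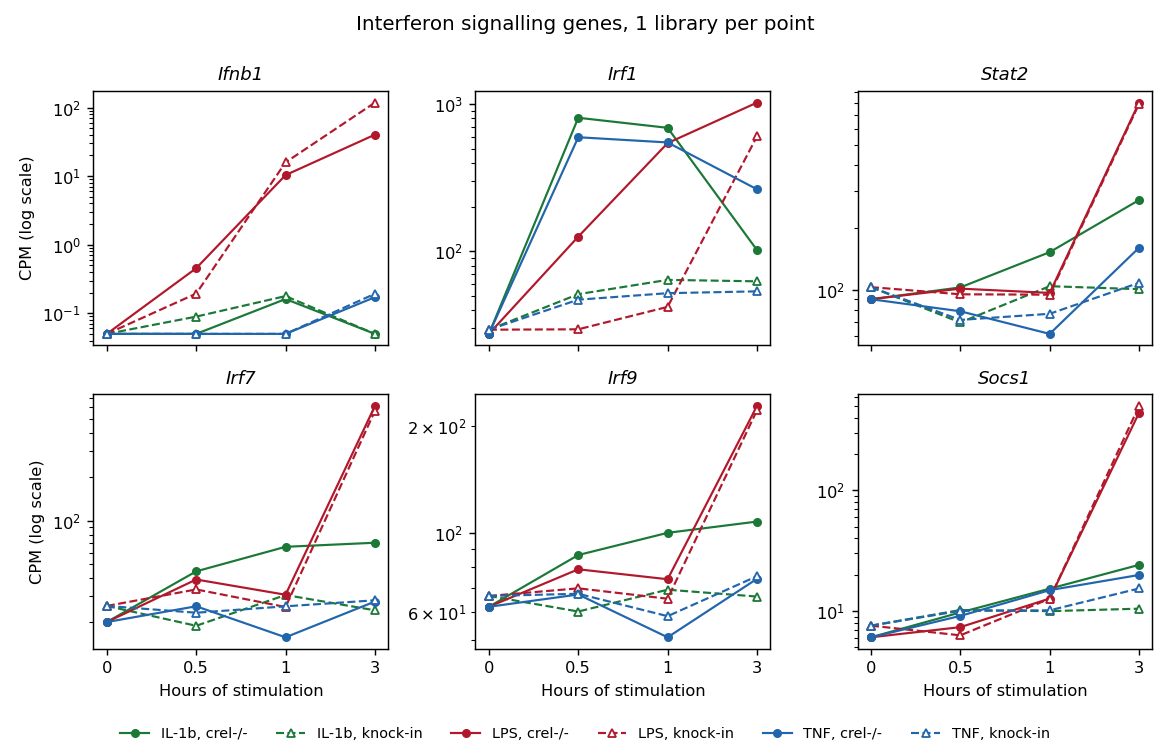
Level (CPM, log axis, 0 CPM drawn at 0.05) of interferon signalling genes named in the text at 0, 0.5, 1 and 3 h of IL-1b, LPS and TNF, times evenly spaced and not to scale; solid lines and filled circles are crel-/- and dashed lines and open triangles knock-in libraries, 1 library per point. Irf1 held 544.2 to 691.3 CPM at 1 h of each agent in crel-/- cells. In knock-in cells it was highest at 3 h of LPS and held at most 63.9 CPM in the other libraries. Ifnb1 rose under LPS in both genotypes.

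GBPs act on inflammasomes, and of 12 inflammasome and pyroptosis genes 8 rose and 1 fell at 3 h of LPS (29.2% and 28.3% of all genes). Casp4, which encodes caspase-11, the cytosolic sensor of lipopolysaccharide, rose by 5.89 (SE 0.50, adjusted p = 2.79e-06), Il1b by 10.12 (SE 1.19, adjusted p = 5.03e-05), Nlrp3 by 5.10 (SE 0.88, adjusted p = 0.000698) and Aim2 by 2.54 (SE 0.22, adjusted p = 5.71e-07). At 3 h, 6 of 12 were lower in knock-in cells and 0 higher, against 8.35% and 8.20% of all genes. Those lower included Il1b (-3.34, SE 0.72, adjusted p = 0.024), Nlrp3 (-2.57, SE 0.59, adjusted p = 0.0301), Casp4 (-1.72, SE 0.38, adjusted p = 0.0222) and Ninj1 (-0.92, SE 0.13, adjusted p = 0.000689). At 3 h of IL-1b and TNF 5 of 12 were lower (6.80% of all genes), Casp4 by -2.52 (SE 0.21, adjusted p = 5.75e-05). Casp4 at 3 h held 53.0 CPM in crel-/- and 6.54 CPM in knock-in cells under IL-1b, 35.4 and 8.84 CPM under TNF, and 191.8 and 115.3 CPM under LPS.

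A list of 11 ATG conjugation genes, whose products are needed to load these GTPases on vacuoles, and the autophagy receptor gene Sqstm1 had a median change near that of all genes. After 3 h of LPS 5 of 12 rose and 4 fell, against 29.2% and 28.3% of all genes. The median was 0.11, and the largest changes were Sqstm1 (1.21, SE 0.22, adjusted p = 0.000616), Atg16l1 (0.73, SE 0.12), Atg3 (0.57, SE 0.08) and Map1lc3a (0.44, SE 0.08). The changes of Atg3 and Map1lc3a are smaller than the shift of 0.62 that leaving out the scaling factor makes, so their direction depends on it. By genotype at 3 h, 1 of 12 was called, near the 8.20% of all genes called higher. It was Gabarapl1, at 0.25 higher in knock-in cells (SE 0.05, adjusted p = 0.006).

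The members' levels went together across libraries. Pearson's r of log2 CPM between 2 members, over 20 libraries, ran from 0.850 (Gbp5 and Iigp1) to 0.995 (Irgm1 and Igtp), with a median of 0.962 over 36 pairs. Without the LPS 3 h libraries the range was 0.688 (Gbp5 and Iigp1) to 0.978 (Gbp2 and Gbp7) and the median 0.887 over 18 libraries. These are descriptions across libraries that share agents, depth and genotype, with no test. The 5 other genes most like the members' mean were Dtx3l (r = 0.995), Parp14 (0.994), Gbp4 (0.994), Ifi35 (0.990) and Ifi47 (0.990), of which Gbp4 and Ifi47 encode further interferon-inducible GTPases, and 4 of the 5 kept that place without the LPS 3 h libraries. The gene nearest to Gbp5 was Ccl5 (r = 0.981), a chemokine gene, and Gbp2 was nearest to Gbp7 (0.993), Irgm1 to Igtp (0.995), Irgm2 to Trim21 (0.995) and Iigp1 to Ifit3 (0.994). Without the LPS 3 h libraries the nearest gene was another for Gbp5 (Cx3cl1, 0.972) and Irgm2 (Znfx1, 0.983). It was also another for Gbp7 (Gbp2, 0.978), Gbp11 (Abcb1b, 0.902) and Igtp (Gm12185, 0.968). It was the same for Gbp2, Gbp3, Irgm1 and Iigp1.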

How the data were processed

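The labels describe a stranded mRNA library from each of 20 RNA samples, read from a single end, and the authors deposited whole-number read counts per gene, unnormalized, with exon coordinates and lengths. Per the submitters' processing notes, cutadapt 1.12, STAR, featureCounts 1.5.1, DESeq2 and mm10 were used. Not given in the sources used here are the strand setting, annotation release and treatment of multi-mapping reads. Symbols matched 98.8% of 45706 identifiers. Each of the 20 groups (2 genotypes, 3 agents, 3 times and 0 h) has 1 library of 9248151 to 12574135 counts, so precision is that of counting, and ratios carry exact 95% counting intervals that cover counting error only.

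The 14023 genes that reached 1 CPM in 2 or more libraries (99.9% of counts) were tested with edgeR 4.0.16 (TMM, robust quasi-likelihood F test, R 4.3.3), with Benjamini-Hochberg adjustment over all tested genes and a threshold of 0.05 in each of 24 comparisons. The main model held condition and genotype (9 residual degrees of freedom), and others a genotype term per time or per agent (6), so conditions served in place of replicates. A model with a separate genotype term for LPS at 3 h (5) was added after the data were seen. The members and lists were chosen with earlier results of these data known. Alternatives were DESeq2 1.42.0, limma-voom (limma 3.58.1), other scaling, no count filter, fewer libraries and leaving out each library or pair. The text names all members, genes of the lists past the threshold with the largest changes, and the genes most correlated with the members; a few listed genes are not reported here. Promoter sequences are from RefSeq.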

Additional observations from a re-analysis of the deposited data

How the results depend on the processing

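No called value of a member changed sign under the alternatives run. Of the alternatives for counts of members called, 444 stayed within 1.5 times of the main count and 40 did not. These take each direction of each comparison apart, and a count of 0 in both fits is among the 444. The 444 is therefore no measure of how stable the calls were. The count for LPS at 3 h against 0 h was 9 of 9 under each of them. On the 4 libraries of a comparison alone, members called were 6 (LPS 0.5 h), 4 (LPS 1 h), 1 lower (TNF 1 h), 0 (IL-1b 3 h), 2 (TNF 3 h), 5 (LPS against TNF) and 1 (LPS against IL-1b), with fewer samples in each fit. With no count filter they were 3 (IL-1b 3 h), 3 (TNF 3 h), 1 (genotype over 10 pairs) and 1 (genotype under IL-1b). With limma-voom the genotype counts were 4 (10 pairs), 3 (3 h), 8 (IL-1b), 1 (LPS), 1 and 1 (LPS against TNF and IL-1b) and 4 (LPS against IL-1b and TNF at 3 h, a model chosen after seeing the data). With DESeq2 they were 1 (1 h), 5 (3 h), 6 (IL-1b), 2 (TNF) and 3 (the added contrast). Without both LPS 3 h libraries they were 1 (1 h), 6 (3 h) and 2 (3 h against 0.5 h). Leaving out each library or pair in turn gave 0 to 9 (IL-1b 3 h), 0 to 6 (TNF 3 h), 1 to 2 (10 pairs), 0 to 6 (genotype at 3 h), 0 to 2 (3 h against 0.5 h), 1 to 2 (IL-1b), 0 to 1 (TNF), 3 to 6 (IL-1b and TNF at 3 h) and 0 to 1 (the added contrast). The cause was not tested. With 1 library per group, no fit measures the spread between cultures, and Gbp11 outside LPS at 3 h is limited by its few counts. The labels give no replicate numbers; the genotype over 10 pairs was fitted with condition as the pairing.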

Other observations

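Relatives of the members did not all follow them. At 3 h of TNF, where Gbp4 rose by 3.26 and Tgtp1 by 2.54 on the log2 scale, 3 of the 17 tested relatives fell by edgeR. This is near the 16.0% of all genes that fell. The 3 were 9930111J21Rik1 by 1.96 (SE 0.50, adjusted p = 0.0096), 9930111J21Rik2 by 1.39 (SE 0.27, adjusted p = 0.0018) and Gbp8 by 1.68. Irgq, an IRG relative, held 70.5 CPM in crel-/- and 81.1 CPM in knock-in cells at 0 h, and 43.4 and 29.0 CPM at 3 h of LPS. Gbp2b, a close relative of Gbp2, was too low to be tested, with at most 17 counts, in the crel-/- LPS 3 h library. These genes were picked after their values were seen.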
